A study of Homo sapiens with 12 samples.

Results

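The cathepsins are the main proteases of the lysosome, and their transcripts were compared among 3 groups of human glioblastoma cells. The members are the genes CTSA, CTSB, CTSC, CTSD, CTSF, CTSH, CTSK, CTSL, CTSO and CTSZ, taken by symbol from the deposited table of normalized expression, whatever their values. Of these 10 genes, 9 had a row among the 11178 genes of the table, and all 9 passed the filter on low values that left 11128 genes. CTSZ was not analysed here.

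Most cathepsins are cysteine proteases (CTSB, CTSC, CTSF, CTSH, CTSK, CTSL and CTSO), while CTSD is an aspartic protease and CTSA a serine carboxypeptidase. They are made as inactive proenzymes in the endoplasmic reticulum, receive a mannose phosphate tag in the Golgi, and are carried by receptors for that tag to acidic endosomes and lysosomes, where the propeptide is removed. Cystatins inhibit the cysteine cathepsins that leave the lysosome. In brain cells cathepsins degrade proteins delivered by endocytosis and autophagy, and CTSB and CTSD are known to cleave peptides derived from the amyloid precursor protein (APP).

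All 12 libraries came from U251-APP cells, a derivative of the human glioblastoma line U251 that stably expresses mutant APP (K670N and M671L), so the control cells carry this transgene too. The wild-type group consisted of 4 libraries of U251-APP control cells. The CTCF-A KO group (4 libraries) and the CTCF-B KO group (4 libraries) lacked a binding site of CTCF, a DNA-binding insulator protein, called CTCF-A in the first group and CTCF-B in the second, after Cas9 and paired guide RNAs had cut on both sides of it, with single-cell cloning and sequencing of the target. Sample names of the CTCF-B KO group mention the gene MTCH2. The labels give CRISPR/Cas9 editing as the treatment of all 12 libraries, wild type included, and do not say whether the wild-type cells were cloned or whether the 4 libraries of a group are separate clones or cultures. The p-values therefore measure only the spread between these libraries, which may be technical, and a property of 1 clone cannot be told apart from the loss of the site.

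The values are log2 expression values normalized by the authors, without read counts, so the depth of each library is unknown. Replicates of 1 group differed by a median over genes of 0.05 to 0.08 (log2) in wild type, 0.06 to 0.08 in CTCF-B KO and 0.08 to 0.29 in CTCF-A KO. The CTCF-A KO libraries also differed from one another in how values followed base composition. The difference between the genes of the top and the bottom decile of GC content, against the wild-type mean, was 0.96, 0.45, 0.66 and 0.06 (log2) in CTCF-A KO replicates 1 to 4, compared with -0.15 to 0.09 in wild-type cells and -0.10 to 0.03 in CTCF-B KO. Of the astrocyte and glioma markers, 9 of 12 were in the table (not S100B, AQP4 and ALDH1L1), and their summed linear level was lower in both knockouts. It was 168926 to 191575 in wild type, 117491 to 131604 in CTCF-A KO cells and 109119 to 112985 in CTCF-B KO. The most abundant markers weigh most in this sum. GFAP fell furthest, from a mean log2 level of 15.68 in wild type to 12.57 (CTCF-A KO) and 12.83 (CTCF-B KO). VIM (15.92 and 15.94) and SOX9 (12.31 and 12.37) did not fall from wild type to CTCF-A KO. Tested singly (limma adjusted p under 0.05), 6 of the 9 were lower and 0 higher for CTCF-A KO, against 8 and 0 for CTCF-B KO. Of 15 macrophage and microglia markers, cells that are rich in cathepsins, and of 6 oligodendrocyte markers, 0 were among the genes analysed. Because these are bulk samples, fewer cells of a type and less RNA per cell cannot be told apart.

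In CTCF-A KO cells, CTSD, CTSH, CTSB, CTSA and CTSL rose and CTSF and CTSC fell relative to wild type, in the fit over all genes (limma, two-sided, Benjamini-Hochberg adjusted p under 0.05). CTSK and CTSO did not pass. Thus 7 of 9 members passed the test, 5 higher and 2 lower, where 62.9% of all genes tested passed, 31.8% higher and 31.1% lower. In CTCF-B KO cells CTSL rose, CTSH and CTSF fell, and the other 6 did not pass, so that 3 of 9 members passed, where 39.4% of all genes passed, 18.9% higher and 20.6% lower. That count was 5 of 9, with 4 lower, both when only the 8 libraries of the comparison were fitted and when a dependence on GC content and length was removed. Between the knockouts, 6 members were higher in CTCF-A KO than in CTCF-B KO, 1 was lower and 2 did not pass, where 66.0% of all genes passed, 33.4% higher and 32.6% lower. Without CTCF-A KO replicate 3 it was 4 of 9, since CTSC, CTSL and CTSO no longer passed. So many genes passed in each comparison that the counts of members that passed are not a result about the members, and the sizes of their differences are given instead. The median difference over the 9 members was 0.53 (log2) for CTCF-A KO minus wild type and -0.08 for CTCF-B KO minus wild type, while the median over all genes was 0.00 in both. Both comparisons use the same 4 wild-type libraries and are therefore not independent.

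**Figure D1:**
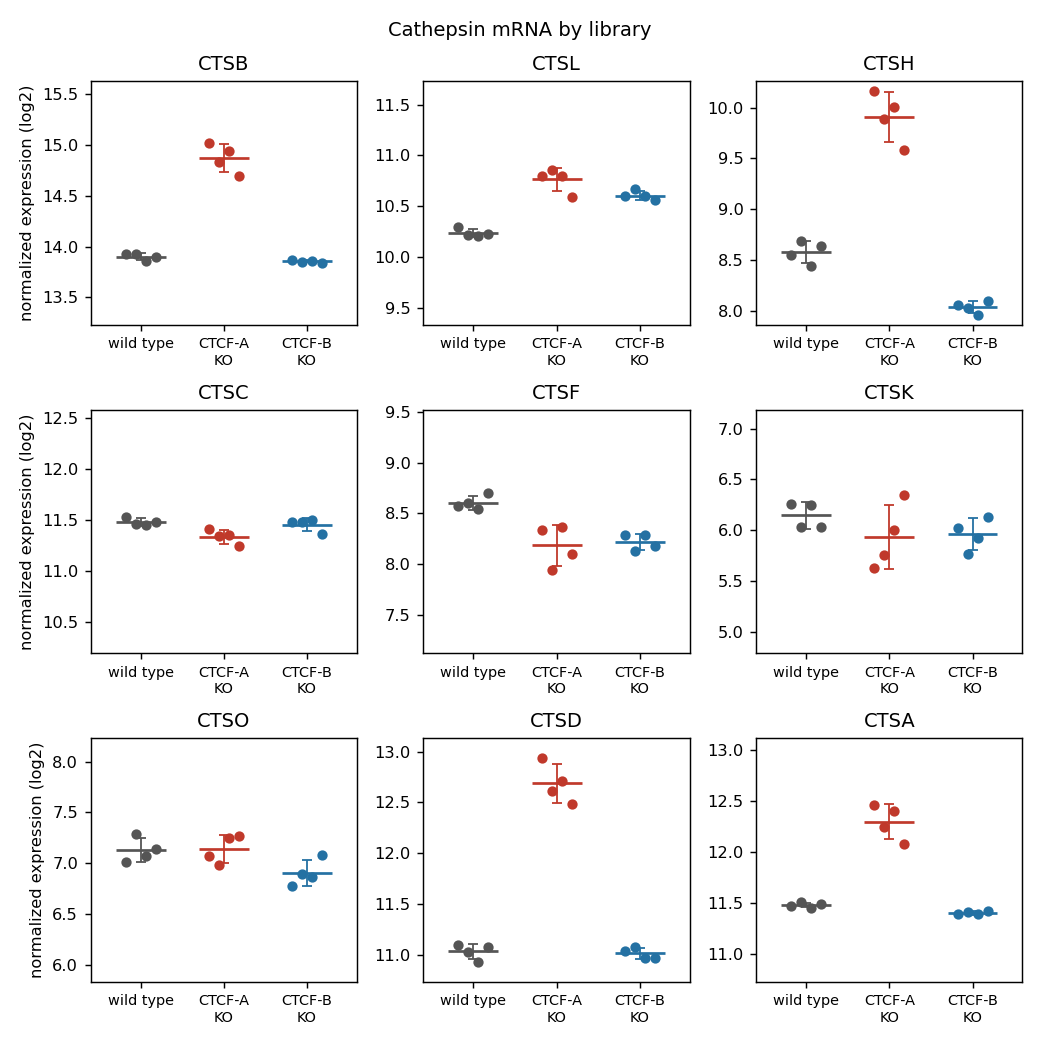
Normalized log2 expression (y axis, each panel spanning the same 2.4 log2 units) of the 9 cathepsins in each library, by group (x axis). Points are libraries and bars are the mean and SD of 4 libraries, and the CTCF-A KO points of CTSD, CTSH, CTSB and CTSA all lie above the other 8 libraries.

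CTSD, the main lysosomal aspartic protease (ENSG00000117984, GRCh38 chr11:1752752-1764573, minus strand), rose 3.14-fold in CTCF-A KO. Its normalized log2 values were 11.10, 11.03, 10.93 and 11.08 in wild type, 12.94, 12.61, 12.71 and 12.49 in CTCF-A KO, and 11.04, 11.08, 10.97 and 10.97 in CTCF-B KO. All 4 CTCF-A KO libraries lay above the other 8, while wild type and CTCF-B KO overlapped. The difference from wild type was 1.65 ± 0.08 (log2, SE, n = 4 per group; limma adjusted p = 4.95e-09), which placed CTSD at rank 13 among the 11128 genes. For CTCF-B KO the difference was -0.02 ± 0.08 (adjusted p = 0.861), with a 95% interval of -0.19 to 0.15, and the direct difference between the knockouts was 1.67 ± 0.08 (adjusted p = 2.39e-09). Within the annotation, CTSD shares 1166 exon bases with the locus AC068580.4 on its own strand and 150 with AC068580.3 on the opposite strand, so reads of these loci could have been assigned differently.

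CTSA, also called protective protein because it stabilises beta-galactosidase and neuraminidase in a lysosomal complex (ENSG00000064601, GRCh38 chr20:45890144-45898820, plus strand), rose 1.76-fold in CTCF-A KO. Its log2 values were 11.47, 11.50, 11.45 and 11.49 in wild type, 12.46, 12.25, 12.41 and 12.08 in CTCF-A KO, and 11.39, 11.41, 11.39 and 11.42 in CTCF-B KO. The CTCF-A KO libraries were again the highest, and the CTCF-B KO libraries all lay slightly below the wild-type libraries. The difference was 0.82 ± 0.07 (log2, SE; limma adjusted p = 5.31e-07) for CTCF-A KO and -0.08 ± 0.07 (adjusted p = 0.385) for CTCF-B KO, and that between the knockouts was 0.90 ± 0.07 (adjusted p = 1.44e-07). The CTCF-B KO difference, which did not pass, has a 95% interval of -0.22 to 0.07. It passed when only the 8 libraries of the comparison were fitted (adjusted p = 0.0134) and when the dependence on GC content and length was removed from each library (-0.09, adjusted p = 0.0168). CTSA shares 200 to 248 exon bases with each of PLTP, NEURL2 and AL008726.1 on the opposite strand, and the strand setting of the counting is not given in the sources used here.

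The start regions of CTSA and CTSD are shown because TFEB, a transcription factor of lysosomal genes, is known to bind sites built around the hexamer CACGTG, and TFEB transcripts were measured in the same libraries (given with the regulators further on). RefSeq promoters (GRCh38.p14, 300 bases, from 250 before to 50 after the transcript start) were matched by symbol for 6 members, CTSA, CTSC, CTSD, CTSF, CTSH and CTSL. The hexamer, searched on both strands, was present in those of CTSA, CTSD and CTSF and in 7.26% of all 35116 promoters. The lines below give 30-base windows around it in the direction of the gene, with CACGTG in capitals. They cover chr20:45891290-45891319 (plus strand, -45 to -16 from the start) for CTSA, chr11:1763957-1763986 (minus strand, -59 to -30) for CTSD, and chr11:66568712-66568741 (minus strand, -135 to -106) and chr11:66568640-66568669 (minus strand, -63 to -34) for CTSF.
CTSA: tgtCACGTGgcgccggagttCACGTGactc
CTSD: gccggccgcgccCACGTGaccggtccgggt
CTSF, distal match: acatataacaagCACGTGatagaggtcagt
CTSF, proximal match: ccctgcgcgcccCACGTGcctcctgtaaac
CTSA held 2 copies and CTSD held 1, and both rose in CTCF-A KO, while CTSF held 2 copies and fell. The promoters of CTSC, CTSH and CTSL held no CACGTG. Of these, CTSH and CTSL also rose in CTCF-A KO, by 1.33 and 0.53 (log2), and the direction of CTSC depended on the processing. CTSB, which rose too, was not searched. Presence of the hexamer thus did not separate the members that rose from the others. The longer palindrome TCACGTGA, which contains CACGTG, was found for CTSA and in 0.98% of the promoters searched. A still longer palindrome that contains this one was also searched. It was found for 0 of the 6 members, CTSA included, and in 0.353% of the promoters searched. TGACNNNGC, the shape of an antioxidant response element, was found for CTSA, CTSC, CTSD and CTSL (13.3% of the promoters searched). The GC box GGGCGG was found for all but CTSF of the 6 (45.0% of the promoters searched). A match describes the letters in the window and does not show that a factor binds there.

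CTSB, a cysteine protease that cuts both inside proteins and at their carboxyl end (ENSG00000164733, GRCh38 chr8:11842524-11869448, minus strand), rose 1.96-fold in CTCF-A KO. The log2 values were 13.93, 13.92, 13.85 and 13.90 in wild type, 15.02, 14.83, 14.94 and 14.70 in CTCF-A KO, and 13.87, 13.85, 13.86 and 13.84 in CTCF-B KO. Every CTCF-A KO library was above every other library, whereas the wild-type and CTCF-B KO ranges overlapped. The difference from wild type was 0.97 ± 0.06 (log2, SE; limma adjusted p = 2.35e-08) in CTCF-A KO cells and -0.05 ± 0.06 (adjusted p = 0.548; 95% interval -0.17 to 0.07) in CTCF-B KO. After quantile normalization the CTCF-B KO difference of CTSB changed sign to 0.10 and passed (limma adjusted p = 0.0025). The direct difference between the knockouts was 1.02 ± 0.06 (adjusted p = 8.37e-09).

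CTSH, a cysteine protease that acts mainly as an aminopeptidase (ENSG00000103811, GRCh38 chr15:78921058-78949574, minus strand), was the member that passed the test in opposite directions in the knockouts. It had log2 values of 8.55, 8.69, 8.44 and 8.64 in wild type, 10.16, 9.88, 10.01 and 9.58 in CTCF-A KO, and 8.06, 8.03, 7.96 and 8.09 in CTCF-B KO. The 3 groups did not overlap. CTSH rose 2.52-fold in CTCF-A KO (1.33 ± 0.10, log2, SE; limma adjusted p = 2.94e-07) and fell to 68.7% of wild type in CTCF-B KO (-0.54 ± 0.10, adjusted p = 9.21e-04). The direct difference of 1.87 ± 0.10 (adjusted p = 7.98e-09), a 3.66-fold higher level in CTCF-A KO, was at rank 21 of the 11128 genes, and that of CTSD was at rank 35.

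CTSL, a broadly acting lysosomal endopeptidase (ENSG00000135047, GRCh38 chr9:87725519-87731393, plus strand), rose in both knockouts. Its log2 values were 10.29, 10.22, 10.21 and 10.22 in wild type, 10.80, 10.86, 10.80 and 10.59 in CTCF-A KO, and 10.60, 10.66, 10.60 and 10.56 in CTCF-B KO. Both knockouts lay above all wild-type libraries and overlapped each other. The rise was 1.44-fold in CTCF-A KO (0.53 ± 0.05, log2, SE; limma adjusted p = 4.37e-06) and 1.29-fold in CTCF-B KO (0.37 ± 0.05, adjusted p = 1.54e-04). The difference between the knockouts, 0.16 ± 0.05 (adjusted p = 0.0209), was 0.01 (adjusted p = 0.857) once the dependence on GC content and length was removed.

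CTSV, a cysteine cathepsin closely related to CTSL in sequence, is not among the members and was the only other cathepsin of 5 looked for (CTSE, CTSG, CTSS, CTSV and CTSW) that was in the table. Its log2 level was 6.76 ± 0.05 (SD, n = 4) in wild type, 6.66 ± 0.04 in CTCF-A KO cells and 5.85 ± 0.10 in CTCF-B KO. CTSV fell to 53.4% of wild type in CTCF-B KO (-0.90 ± 0.07, log2, SE; limma adjusted p = 2.41e-07), where CTSL rose, and its difference in CTCF-A KO was -0.10 ± 0.07 (adjusted p = 0.201). Reads from stretches that CTSL and CTSV share could be assigned to either gene, so both values are uncertain to that extent.

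CTSF, a cysteine protease with a long propeptide (ENSG00000174080, GRCh38 chr11:66563463-66568841, minus strand), fell in both knockouts. Its log2 values were 8.57, 8.60, 8.54 and 8.70 in wild type, 8.34, 7.94, 8.36 and 8.10 in CTCF-A KO, and 8.29, 8.13, 8.29 and 8.18 in CTCF-B KO. All 8 knockout libraries were below the 4 wild-type libraries, and the knockouts overlapped. CTSF reached 74.8% of wild type in CTCF-A KO (-0.42 ± 0.09, log2, SE; limma adjusted p = 0.0012) and 76.6% in CTCF-B KO (-0.38 ± 0.09, adjusted p = 0.00354). The difference between the knockouts was -0.04 ± 0.09 (adjusted p = 0.735), with a 95% interval of -0.22 to 0.15. With the GC and length dependence removed it was -0.23 (adjusted p = 0.012), and the fall in CTCF-A KO was -0.63.

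CTSC, the dipeptidyl peptidase that activates serine proteases of immune cell granules (ENSG00000109861, GRCh38 chr11:88293592-88337787, minus strand), had log2 values of 11.53, 11.46, 11.45 and 11.48 in wild type, 11.41, 11.34, 11.35 and 11.24 in CTCF-A KO, and 11.48, 11.48, 11.50 and 11.36 in CTCF-B KO. The CTCF-A KO libraries lay below wild type by a small margin. The fall to 90.4% of wild type (-0.15 ± 0.05, log2, SE; limma adjusted p = 0.014) did not hold under other processing. The longest transcript of CTSC has a GC content of 38.2%, at percentile 7.65 of the genes. With the dependence on GC content and length removed the difference was 0.33 ± 0.15 (adjusted p = 0.0735). Median centring gave -0.064 (adjusted p = 0.371). In CTCF-B KO the difference was -0.03 ± 0.05 (adjusted p = 0.672; 95% interval -0.13 to 0.07), and CTCF-A KO minus CTCF-B KO was -0.12 ± 0.05 (adjusted p = 0.0352), with groups that overlapped. That call, too, was lost with only the 8 libraries (adjusted p = 0.0801), after median centring (adjusted p = 0.472) and without CTCF-A KO replicate 2, 3 or 4 or CTCF-B KO replicate 1, 2 or 3 (adjusted p from 0.0563 to 0.0982), and with the GC and length dependence removed the difference was 0.34 (adjusted p = 0.0651).

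CTSK and CTSO had the lowest levels of the 9 members. CTSK, the collagen-degrading protease known from osteoclasts (ENSG00000143387, GRCh38 chr1:150796208-150808323, minus strand), had log2 values of 6.26, 6.04, 6.25 and 6.03 in wild type, 5.63, 5.76, 6.01 and 6.35 in CTCF-A KO, and 6.03, 5.76, 5.93 and 6.13 in CTCF-B KO. The 3 groups overlapped, and the CTCF-A KO libraries spanned the whole range. The difference was -0.21 ± 0.14 (log2, SE; limma adjusted p = 0.201; 95% interval -0.51 to 0.09) in CTCF-A KO cells and -0.18 ± 0.14 (adjusted p = 0.324; -0.49 to 0.12) in CTCF-B KO. Without CTCF-A KO replicate 4, the difference of CTSK in CTCF-A KO was -0.35 (adjusted p = 0.0138). CTSO (ENSG00000256043, GRCh38 chr4:155924118-155953917, minus strand), a less studied cysteine cathepsin, had log2 values of 7.01, 7.29, 7.08 and 7.14 in wild type, 7.07, 6.98, 7.25 and 7.27 in CTCF-A KO, and 6.78, 6.89, 6.86 and 7.08 in CTCF-B KO. Its groups overlapped too. The difference of CTSO from wild type was 0.01 ± 0.09 (adjusted p = 0.904; 95% interval -0.18 to 0.21) in CTCF-A KO cells and -0.23 ± 0.09 (adjusted p = 0.0589; -0.42 to -0.03) in CTCF-B KO. Both calls of CTSO depend on the processing. With the GC and length dependence removed it was higher than wild type in CTCF-A KO by 0.22 (adjusted p = 0.0414) and lower in CTCF-B KO (-0.25, adjusted p = 0.0297). The CTCF-B KO difference also passed with only the 8 libraries (adjusted p = 0.0251), without CTCF-B KO replicate 4 (adjusted p = 0.0283) and without CTCF-A KO replicate 4 (adjusted p = 0.037). CTSO was higher in CTCF-A KO than in CTCF-B KO by 0.24 ± 0.09 (adjusted p = 0.0292), with groups that overlapped, and this call was lost without CTCF-A KO replicate 3 or 4 or CTCF-B KO replicate 1, 2 or 3 (adjusted p from 0.0572 to 0.0878). Among osteoclast markers, 1 of 6 was in the table, ACP5, an acid phosphatase, whose linear level was 61.6 to 68.3 in wild type, 167 to 239 in CTCF-A KO cells and 72.3 to 79.8 in CTCF-B KO.

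**Figure D2:**
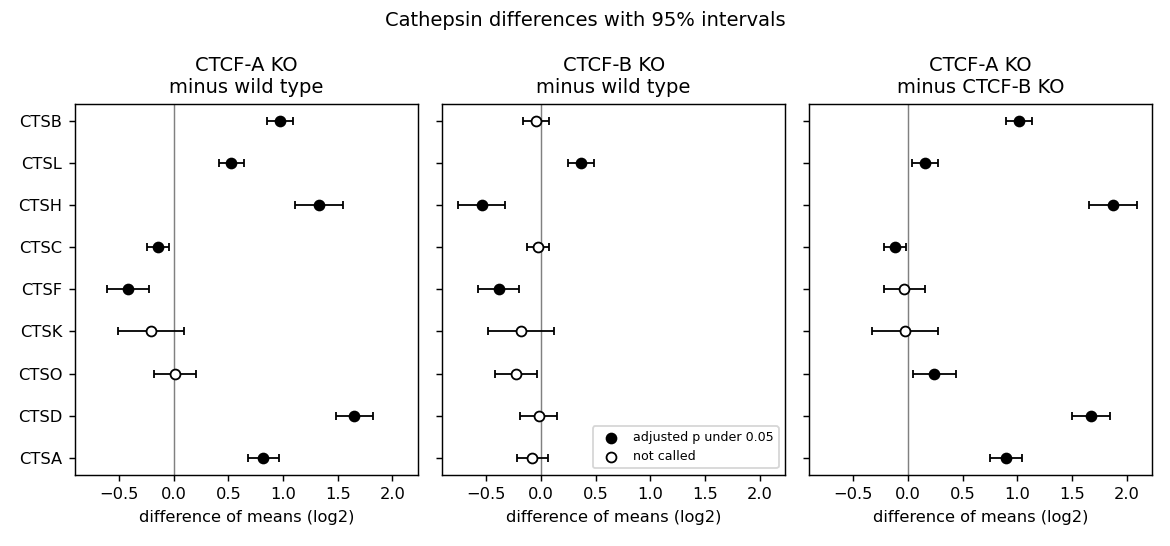
Log2 differences between groups (x axis) for each cathepsin (y axis) in the 3 comparisons. Points are limma estimates, filled where the adjusted p is under 0.05, and bars are 95% intervals; CTSD, CTSH, CTSB and CTSA stand far to the right in both comparisons that involve CTCF-A KO and lie at or left of 0 for CTCF-B KO minus wild type.

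The libraries of the CTCF-A KO group did not contribute equally. Replicate 4, the CTCF-A KO library whose dependence on GC content was closest to wild type, was the lowest of its group for 6 of 9 members (CTSA, CTSB, CTSC, CTSD, CTSH and CTSL) and the highest for CTSK and CTSO. When replicate 4 alone stood for the CTCF-A KO group, the differences from wild type were 1.45 (log2) for CTSD, 1.00 for CTSH, 0.80 for CTSB, 0.60 for CTSA and 0.36 for CTSL, and 7 of 9 members still passed, 5 higher and 2 lower. Removing the dependence on GC content and length from all libraries gave 1.46 for CTSD, 1.16 for CTSH, 0.86 for CTSB, 0.61 for CTSA and 0.37 for CTSL, with 6 members higher and 1 lower. Leaving out any 1 of the 12 libraries moved the difference of CTSD between 1.57 and 1.72, that of CTSH between 1.25 and 1.44, that of CTSB between 0.92 and 1.03, that of CTSA between 0.77 and 0.89 and that of CTSL between 0.50 and 0.58. Each of these 5 members passed the test in all of these fits.

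Levels can be compared between genes only per length, here as the log2 value minus log2 of the summed exon length in kb. In wild type the order was CTSB (11.84 ± 0.03, log2 per kb, SD, n = 4), CTSA (10.25 ± 0.02), CTSD (9.95 ± 0.08), CTSL (8.99 ± 0.04), CTSC (8.55 ± 0.04), CTSF (7.58 ± 0.07), CTSH (7.45 ± 0.11), CTSO (5.57 ± 0.12) and CTSK (5.39 ± 0.13). The neighbours CTSF and CTSH, and CTSO and CTSK, differed by no more than the sum of their SDs. With the length of the longest transcript, a setting chosen after seeing the data, CTSD moved to rank 2 and CTSA to rank 3. In CTCF-A KO the level of CTSD per kb was 11.60 ± 0.19 and that of CTSA 11.07 ± 0.17, so that CTSD stood second behind CTSB (12.81 ± 0.14). CTSH (8.78 ± 0.25) stood above CTSC (8.40 ± 0.07) and CTSF (7.16 ± 0.20) there. The order in CTCF-B KO was that of wild type, with CTSB at 11.80 ± 0.01, CTSA at 10.18 ± 0.02, CTSD at 9.93 ± 0.06, CTSL at 9.36 ± 0.04, CTSC at 8.52 ± 0.06, CTSF at 7.20 ± 0.08, CTSH at 6.90 ± 0.06, CTSO at 5.34 ± 0.13 and CTSK at 5.20 ± 0.16.

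**Figure D3:**
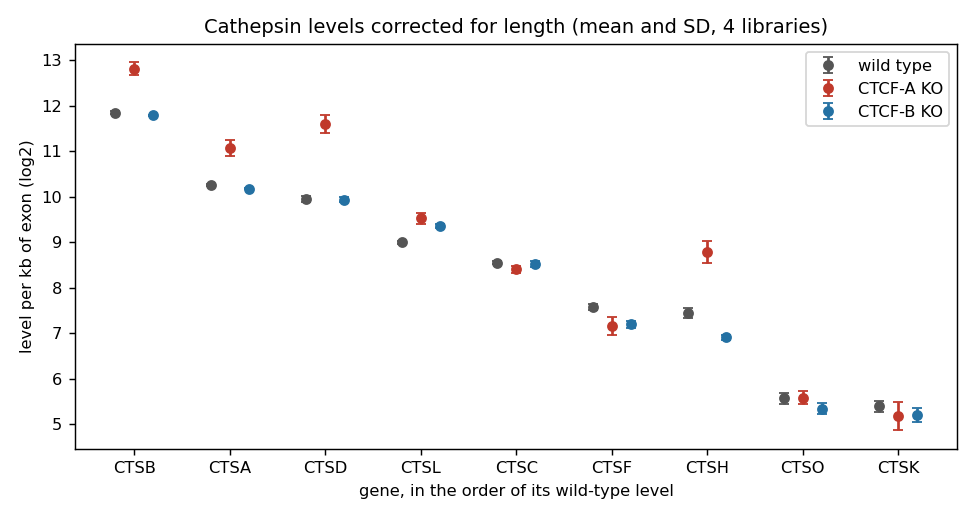
Log2 level per kb of exon (y axis) of the 9 cathepsins, ordered by their wild-type level (x axis), in the 3 groups. Points and bars are the mean and SD of 4 libraries; CTSD overtakes CTSA, and CTSH overtakes CTSF and CTSC, in CTCF-A KO.

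Summed over the 9 members on the linear scale, the level per kb was 7221 ± 170 (SD, n = 4) in wild type, 14267 ± 1481 in CTCF-A KO cells and 7057 ± 66.9 in CTCF-B KO. The CTCF-A KO libraries ranged from 12482 to 15946 and the wild-type libraries from 6974 to 7354, a range that overlapped with that of CTCF-B KO (6972 to 7121). CTSB made up 50.8% of the sum in wild type, 50.7% in CTCF-A KO cells and 50.4% in CTCF-B KO. The share of CTSD was 13.7% in wild type, 21.9% in CTCF-A KO cells and 13.8% in CTCF-B KO. CTSC, which contributed 5.19% in wild type, contributed 2.38% in CTCF-A KO, and CTSL contributed 7.06% in wild type, 5.18% in CTCF-A KO cells and 9.33% in CTCF-B KO. CTSH contributed 2.42%, 3.10% and 1.70% in wild type and in the CTCF-A and CTCF-B knockouts, in that order.

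The members lie on 7 chromosomes, and their differences were compared with those of the other tested genes within 2 Mb. For CTSD, 47 neighbours had a median difference of 0.23 (log2) in CTCF-A KO cells and 0 of them reached the 1.65 of CTSD. For CTSH, the median of 25 neighbours was 0.22 in CTCF-A KO, with 0 above CTSH, and of -0.13 in CTCF-B KO, with 2 below it. The median of the 11 neighbours of CTSB was -0.16 in CTCF-A KO, 0 of them above CTSB. The 11 neighbours of CTSL had medians of -0.02 in CTCF-A KO cells and -0.04 in CTCF-B KO, and 0 of them rose as far as CTSL in either. CTSA had 33 neighbours with a median difference of 0.09 in CTCF-A KO, 2 of them above CTSA. The 97 neighbours of CTSF had medians of 0.00 in CTCF-A KO, where 9 fell further than CTSF, and -0.17 in CTCF-B KO, where 50 of them passed the test and 19 fell further. For CTSK, 55 neighbours had medians of 0.10 in CTCF-A KO cells and -0.21 in CTCF-B KO, the latter close to the -0.18 of CTSK itself. The 6 neighbours of CTSC had medians of -0.19 and -0.09 in the CTCF-A and CTCF-B knockouts, and the 4 of CTSO had medians of -0.22 and -0.01.

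The genes whose profiles over the 12 libraries were most like that of CTSD, by the root mean square (RMS) difference of log2 deviations from the wild-type mean, were MELTF (RMS 0.06), CSF1 (RMS 0.14) and EPHB2 (RMS 0.14). MELTF encodes a membrane-bound transferrin family protein, CSF1 a growth factor of macrophages and EPHB2 an ephrin receptor. Their differences in CTCF-A KO were 1.62, 1.58 and 1.45 (log2), and in CTCF-B KO -0.04, -0.21 and -0.05. The profiles nearest to CTSH were those of SCARB1, a lipoprotein receptor (RMS 0.12; differences 1.17 in CTCF-A KO cells and -0.59 in CTCF-B KO), SSC5D (RMS 0.18; 1.18 and -0.40) and GABRQ, a GABA receptor subunit (RMS 0.18; 1.32 and -0.42). The 9 members themselves were left out of this search, so the 6 are the nearest profiles among the other genes only.

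The genes that act on cathepsins or beside them were taken, together with the 5 other cathepsins looked for (CTSV was the 1 tested), from lists of cathepsin inhibitors, sorting and transport, other lysosomal peptidases, partners of CTSA, lysosomal hydrolases and membrane proteins, subunits of the proton pump and regulators. Of 109 genes listed, 82 were tested. In CTCF-A KO 61 of the 82 were higher and 8 lower, with a median difference of 0.33 (log2), and in CTCF-B KO 21 were higher and 18 lower, with a median of 0.02. Over all genes tested, 31.8% were higher and 31.1% lower in CTCF-A KO, and 18.9% and 20.6% in CTCF-B KO. Between the knockouts these shares were 33.4% and 32.6%. The counts of each list below are to be read beside these shares. Most counts against wild type are also given with the dependence on GC content and length removed. Neighbours on the chromosome were compared for the members only, so whether a listed gene moved with its region was not tested.

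Of 18 cathepsin inhibitors, CSTB and CST3 were in the table, and both rose in CTCF-A KO. CSTB encodes the intracellular cystatin B and had log2 values of 10.21, 10.27, 10.28 and 10.23 in wild type, 11.11, 10.96, 11.07 and 10.68 in CTCF-A KO, and 10.24, 10.24, 10.23 and 10.20 in CTCF-B KO. The CTCF-A KO libraries were all above the rest. The difference was 0.71 ± 0.07 (log2, SE; limma adjusted p = 5.01e-06) for CSTB and 0.59 ± 0.07 (adjusted p = 1.94e-05) for CST3, the secreted cystatin C. In CTCF-B KO 0 of the 2 passed.

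Of 21 genes of cathepsin sorting and transport 19 were tested, and in CTCF-A KO 11 were higher and 5 lower (12 and 4 with the GC and length dependence removed), with a median of 0.23 (log2). GNPTG, a subunit of the transferase that starts the mannose phosphate tag, had log2 values of 9.33, 9.31, 9.10 and 9.22 in wild-type cells and 10.53, 10.30, 10.41 and 10.06 in CTCF-A KO, a rise of 1.08 ± 0.08 (limma adjusted p = 3.83e-07). GNPTAB, which encodes the catalytic subunits of the same transferase, was at 8.82, 9.33, 9.21 and 9.92 in CTCF-A KO against 9.71, 9.80, 9.88 and 9.75 in wild type. The difference of GNPTAB was -0.46 (adjusted p = 0.0268), and its CTCF-A KO replicate 4 lay above all wild-type libraries. With the GC and length dependence removed it was -0.15 (adjusted p = 0.164). NAGPA, the enzyme that uncovers the tag, rose by 0.99 ± 0.08 (adjusted p = 3.46e-07), and PSAP, the precursor of the saposins, by 0.57 ± 0.05 (adjusted p = 8.96e-07). The receptors for the tag, IGF2R and M6PR, rose by 0.43 (adjusted p = 4.64e-06) and 0.25 (adjusted p = 3.33e-04). VPS35, part of the retromer that returns these receptors to the Golgi, fell by 0.93 ± 0.11 on the log2 scale (adjusted p = 1.21e-05), and by 0.55 (adjusted p = 1.71e-09) with that dependence removed.

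In CTCF-B KO 7 of the 19 sorting genes were higher and 3 lower (8 and 5 with the GC and length dependence removed), with a median of 0.02 (log2). SORT1, the sorting receptor sortilin, fell from 12.03, 12.09, 12.03 and 11.99 in wild type to 11.30, 11.14, 11.18 and 11.26 in CTCF-B KO (-0.81 ± 0.05, SE; limma adjusted p = 1.18e-07). It was 12.13, 12.22, 12.22 and 12.39 in CTCF-A KO, so that the knockouts lay on opposite sides of wild type, and its CTCF-A KO difference was 0.20 (adjusted p = 0.00623), or 0.40 with the GC and length dependence removed. PSAP fell by 0.24 on the log2 scale (adjusted p = 0.00173) and NAGPA rose by 0.34 (adjusted p = 0.00305) in CTCF-B KO.

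Among 6 other lysosomal peptidases tested (of 7 listed), 4 were higher and 0 lower in CTCF-A KO cells, with a median of 0.38 (log2) and the same counts after the GC and length dependence was removed. In CTCF-B KO 0 were higher and 4 lower (2 and 4 with that dependence removed), with a median of -0.20. SCPEP1, a serine carboxypeptidase related to CTSA, rose by 0.84 ± 0.05 (limma adjusted p = 3.27e-08) in CTCF-A KO, and LGMN, the asparaginyl protease that processes several cysteine cathepsins, rose by 0.38 (adjusted p = 2.23e-04), or by 0.21 with that dependence removed. In CTCF-B KO PRCP, DPP7, CPQ and TPP1 fell, by 0.17 to 0.28 on the log2 scale.

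The partners of CTSA in its lysosomal complex moved in different ways. GLB1, the beta-galactosidase, rose by 0.73 ± 0.06 (log2, SE; limma adjusted p = 3.83e-07) in CTCF-A KO cells and differed by 0.07 (adjusted p = 0.357) in CTCF-B KO. NEU1, the neuraminidase, had log2 values of 11.37, 11.34, 11.31 and 11.34 in wild type, 11.69, 11.47, 11.56 and 11.28 in CTCF-A KO, and 11.94, 11.96, 11.94 and 11.95 in CTCF-B KO. NEU1 was thus highest in CTCF-B KO (0.61 ± 0.07, adjusted p = 1.14e-05), where CTSA did not pass, and its difference in CTCF-A KO was 0.16 (adjusted p = 0.0454), with replicate 4 below wild type. With the GC and length dependence removed, the CTCF-A KO difference of NEU1 was 0.01 (adjusted p = 0.818), which left 1 of the 3 partners higher and 1 lower, in place of 2 and 1. GALNS, a sulfatase, fell by 0.40 on the log2 scale (adjusted p = 4.94e-04) in CTCF-A KO.

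Of 29 lysosomal hydrolases and membrane proteins tested (of 30 listed), 26 were higher and 0 lower in CTCF-A KO cells, with a median of 0.36 (log2), and with the GC and length dependence removed 24 were higher and 1 lower. ARSB, ACP2 and LAMP2 did not pass in CTCF-A KO, but with that dependence removed LAMP2 and ARSB were higher (0.38 and 0.14) and ACP2 was lower (-0.18). In CTCF-B KO 7 were higher and 6 lower (9 and 10 with that dependence removed), with a median of -0.01. Between the knockouts 25 were higher in CTCF-A KO cells and 1 lower. In CTCF-A KO the cholesterol transporter NPC1 rose by 0.69 ± 0.04 (limma adjusted p = 3.1e-08) and the mannosidase MAN2B1 by 0.75 ± 0.05 (adjusted p = 1.6e-07). NPC1 was at 10.06, 10.09, 10.10 and 10.09 in the CTCF-A KO libraries against 9.41, 9.42, 9.39 and 9.37 in wild type, so that replicate 4 did not stand apart for this gene.

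The proton pump of the lysosome, the V-ATPase, sets the acid pH at which cathepsins work. Of its 16 subunits 11 were higher and 2 lower in CTCF-A KO (11 and 0 with the GC and length dependence removed), with a median of 0.18 (log2). ATP6V0B rose by 0.61 ± 0.08 (limma adjusted p = 2.93e-05), ATP6V0A1 by 0.57 ± 0.05 (adjusted p = 9.37e-07), ATP6V0C by 0.56 ± 0.07 (adjusted p = 1.88e-05) and ATP6V1G1 by 0.51 ± 0.06 (adjusted p = 8.96e-06). ATP6V1C1 and ATP6V1A fell, by 0.45 and 0.34 on the log2 scale (adjusted p = 0.0282 and 0.0226), but differed by -0.05 and -0.02 with that dependence removed (adjusted p = 0.511 and 0.766). ATP6V0C was 0.36 higher in that setting. In CTCF-B KO 3 subunits were higher and 2 lower (5 and 2 with that dependence removed).

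Regulators of lysosomal genes were measured for 7 of 10 listed genes, and in CTCF-A KO 6 were higher and 0 lower (5 and 0 with the GC and length dependence removed), with a median of 0.39 (log2). RRAGD, a small GTPase that links TFEB and MITF to nutrient signalling at the lysosome, was at 7.85, 7.77, 7.70 and 7.65 in wild type, 8.91, 8.85, 8.91 and 8.85 in CTCF-A KO, and 7.46, 7.47, 7.42 and 7.42 in CTCF-B KO. RRAGD rose by 1.14 ± 0.05 (limma adjusted p = 4.1e-09) in CTCF-A KO cells and fell by 0.30 on the log2 scale (adjusted p = 5.51e-04) in CTCF-B KO. TFEB rose by 0.54 ± 0.07 (adjusted p = 3.18e-05) in CTCF-A KO cells and differed by 0.12 (adjusted p = 0.202) in CTCF-B KO, or 0.19 (adjusted p = 0.00548) with the GC and length dependence removed. MITF, a transcription factor related to TFEB, had log2 values of 9.56, 9.55, 9.76 and 9.69 in wild type, 9.79, 10.09, 10.00 and 10.48 in CTCF-A KO, and 8.28, 8.35, 8.32 and 8.28 in CTCF-B KO. MITF fell by 1.33 ± 0.11 on the log2 scale (adjusted p = 9.13e-07) in CTCF-B KO and rose by 0.45 (adjusted p = 0.00366) in CTCF-A KO, or by 0.81 with that dependence removed. In CTCF-B KO 3 of the 7 regulators were higher and 2 lower (4 and 2 with that dependence removed).

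**Figure D4:**
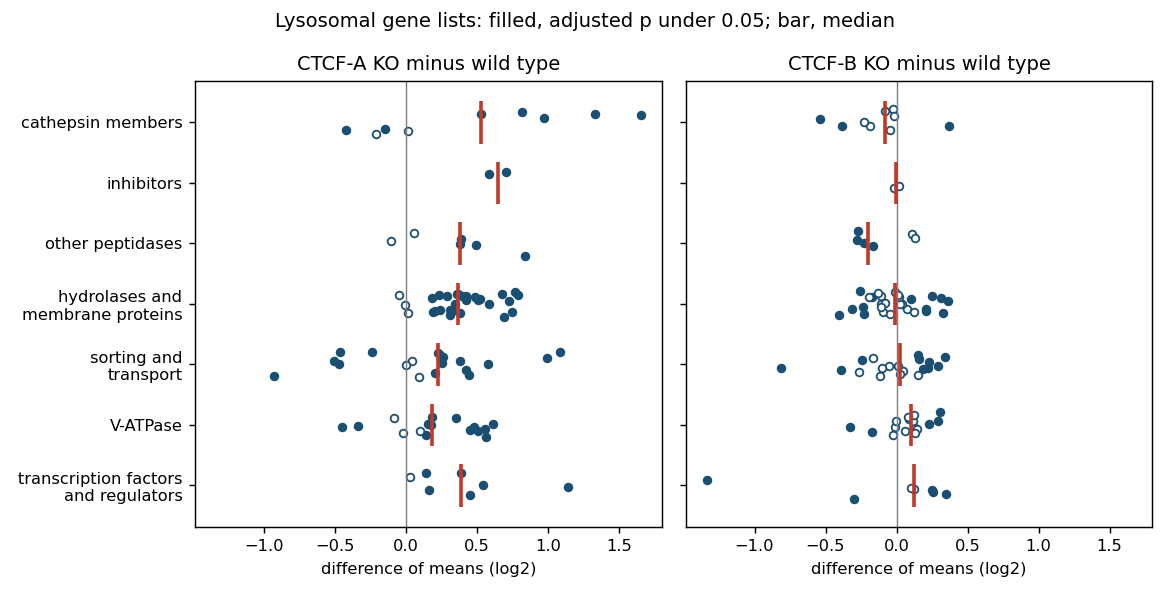
Log2 differences from wild type (axis in log2 units) of the tested genes of each list, for CTCF-A KO and CTCF-B KO. Each point is a gene, filled where the adjusted p is under 0.05, and red bars are list medians; the median of the hydrolases and membrane proteins is 0.36 in CTCF-A KO cells and -0.01 in CTCF-B KO.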

How the data were processed

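Total RNA of 12 libraries was sequenced as read pairs. Trimmomatic 0.33, featureCounts, DESeq2 and the build GRCh38.p7 are named in the submitters' processing notes, while the aligner, annotation, strand setting, transformation and filter are not given in the sources used here. The deposited values are log2 expression values normalized by the authors, from 1.34 to 17.97. They were taken as they stood, although the plan allowed for linear values. No counts were given, so depth and counting error are unknown. Genes with a linear value of at least 10 in at least 4 libraries were kept (11128; 50 removed). The 12 libraries entered one limma 3.58.1 model of the 3 groups (R 4.3.3, trended empirical Bayes, two-sided, Benjamini-Hochberg over all kept genes, threshold 0.05), and the script was tested on simulated data. Positions, lengths and GC content came from GENCODE 29 (GRCh38), for 99.7% of kept genes. GC content was that of the longest transcript of each gene.

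The members, lists and tests were chosen with earlier results of these data known. Named genes were the members, CTSV, and per list and comparison with wild type up to 4 genes with the smallest adjusted p, an absolute log2 difference of at least 0.5 and groups that did not overlap, plus the 3 nearest profiles of members that differed by at least 1 (log2). Other genes named (GNPTAB, IGF2R, M6PR, LGMN, PRCP, DPP7, CPQ, TPP1, GALNS, ARSB, ACP2, LAMP2, ATP6V1C1, ATP6V1A) and second comparisons of named genes were chosen after their values were seen. Endothelial and epithelial markers were also listed: 1 of 6 (KDR) and 1 of 5 (KRT18) were in the table, with linear levels of 1198 to 1276 and 463 to 505 in wild type, 501 to 632 and 369 to 451 in CTCF-A KO, and 674 to 732 and 359 to 388 in CTCF-B KO. One gene that this rule selects is not reported here.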

Additional observations from a re-analysis of the deposited data

Results flagged for a closer look

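CTSC in CTCF-B KO replicate 4 had a normalized log2 value of 11.36, while the other 3 CTCF-B KO libraries lay between 11.48 and 11.50. The gap to the nearest library, divided by the range of the group, was 0.832, just above Dixon's 95% critical value for 4 samples. Of 30 groups examined (10 cathepsins with CTSV, 3 groups each) this was the 1 that passed, and chance passes about 1 in 20 groups. Without that library the difference of CTSC between CTCF-B KO and wild type was 0.0047 (log2) in place of -0.03, and neither passed the test.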

How the results depend on the processing

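The sizes printed here are log2 differences unless they are counts. Of the values of the 9 members under all alternatives, 558 kept their direction and side of the threshold and 23 changed sign. Among the values that kept their sign, 20 lost their call and 11 gained one. Some of the 23 that changed sign lost or gained a call too. In CTCF-A KO minus wild type, CTSD, CTSH, CTSB, CTSA and CTSL kept their direction and call under every alternative run. When replicate 4 alone stood for the CTCF-A KO group, 4654 genes passed in place of 7002 (2252 higher), and its lone value was assumed to vary like the other groups. With only the 8 libraries of a comparison fitted, 6601 genes passed in CTCF-B KO minus wild type in place of 4389 (3252 higher), 5 members passed there (4 lower), 5 listed genes were lower in CTCF-A KO minus wild type, and 0 members were lower in CTCF-A KO minus CTCF-B KO. With the dependence on GC content and length removed, 3243 genes were higher in CTCF-B KO, where 5 members passed (4 lower), and 1 member was lower in CTCF-A KO. Median centring left 1 member lower in CTCF-A KO and 0 lower between the knockouts, and quantile normalization gave 2 members higher in CTCF-B KO. The longest transcript as the length, chosen after seeing the data, gave ranks of 3 for CTSA and 2 for CTSD. The cause of these shifts was not tested.

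Signs changed as follows. In CTCF-A KO minus wild type CTSC was 0.33 with GC and length removed (adjusted p = 0.0735) and CTSV was 0.20, and with replicate 4 alone CTSK was 0.20 and NEU1 -0.056. In CTCF-B KO minus wild type quantile normalization gave 0.10 for CTSB, which passed (limma adjusted p = 0.0025). It gave 0.032 for CTSC, 0.0073 for CTSD and 0.0040 for CSTB, which did not pass. Between the knockouts CTSC was 0.34 with GC and length removed, CTSF 0.052 after quantile normalization and 0.032 after median centring, and CTSK 0.041 after median centring. With replicate 4 alone, CTSK was 0.38 and CTSL -0.010 between the knockouts.

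The replicate numbers did not pair the samples: 5 of 12 pairs with the same number had deviations correlated above 0.1, 8 of 24 comparisons were best with the own number, and the labels do not say that a number marks anything shared. With the replicate number as a block, 7060, 4414 and 7420 genes passed in the 3 comparisons and 7, 3 and 7 members, as without it. With the block and GC and length removed, 3248 genes were higher in CTCF-B KO, 1 member was lower in CTCF-A KO, and CTSV was 0.20 in CTCF-A KO minus wild type. In that blocked fit CTSC passed in the opposite direction, as higher, with 0.33 (adjusted p = 0.0281) against wild type and 0.34 (adjusted p = 0.0239) between the knockouts.

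Leaving out 1 library at a time gave 7 to 8 members passing in CTCF-A KO minus wild type, 3 to 4 in CTCF-B KO minus wild type and 4 to 7 between the knockouts (0 to 1 lower), the 4 being without CTCF-A KO replicate 3. The calls of CTSC, CTSL and CTSO between the knockouts were each lost in some of these fits. The values that changed sign ranged from -0.028 to 0.067 for CTSO in CTCF-A KO, from -0.042 to 0.0047 for CTSC, from -0.055 to 0.00085 for CTSD and from -0.0014 to 0.075 for GNPTG in CTCF-B KO, and from -0.095 to 0.046 for CTSF and from -0.163 to 0.074 for CTSK between the knockouts. None of these passed the test in any of those fits.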
